A study of Mus musculus with 6 samples.

Results

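Retinal ganglion cells are the projection neurons of the eye. Here they are the cells that the authors' deposited cell table labels as retinal ganglion cells, 7357 of the 67050 cells of 6 mouse libraries at embryonic day 14. The other cells carried the labels retinal progenitor cells (40882), neurogenic cells (12857), cones (3292) and horizontal cells (2662). The study measured RNA in single retinal cells by droplet sequencing with 10x Genomics 3' chemistry, version 2, in 3 genotypes with 2 libraries each. The Bax null group lacks Bax, and its labels name no Atoh7 mutation. The Bax het Atoh7 null group lacks Atoh7 and keeps 1 Bax allele by its label. The Bax null Atoh7 null group lacks both genes. All 6 libraries carry at least 1 mutated Bax allele, and no group had both genes intact. The alleles, the strain, the sex of the embryos and the number of embryos per library are not given in the sources used here, so p-values measure only the spread between these libraries, which may be technical.

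Ganglion cells are the first neurons that retinal progenitors make, and their axons form the optic nerve. Atoh7 is a basic helix-loop-helix transcription factor that is switched on for a short time in progenitors leaving the cell cycle, and most ganglion cells depend on it. Below it act Pou4f2 and Isl1, transcription factors that turn on genes for axon growth, neurofilaments and synaptic release. Bax is an effector of mitochondrial cell death, so without it cells that would otherwise die can persist. Setting Bax null Atoh7 null against Bax null therefore asks which parts of the ganglion cell programme were present in cells of this label formed without Atoh7.

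Ganglion cells numbered 1772 and 1571 in Bax null, 667 and 1056 in Bax het Atoh7 null, with 1153 and 1138 in Bax null Atoh7 null (replicates 1 and 2 in this and all later pairs). They were 17.26% and 16.95% of the cells of the Bax null libraries and 6.932% to 9.631% of those of the other 4. Their summed transcript counts (UMIs, unique molecular identifiers) were 10475320 and 10906998 in Bax null and ranged from 1913889 to 2817213 in the other 4. The median ganglion cell held 5578 and 6683 UMIs in Bax null and 1834 to 2624 elsewhere. Levels below are in CPM, the UMIs of a gene relative to all UMIs of the ganglion cells of a library, with the TMM scaling of edgeR unless called raw.

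Atoh7 had 0 UMIs in the ganglion cells of all 4 Atoh7 null libraries, which allows up to between 1.065 and 1.567 raw CPM at the limit of 3 UMIs, and 77 and 113 UMIs in Bax null (7.35 and 10.4 raw CPM). Bax stood at 250.8 and 184.9 raw CPM for Bax het Atoh7 null, 30.3 and 26.7 for Bax null, and 85.2 and 28.1 for Bax null Atoh7 null. So replicate 1 of the libraries labelled Bax null Atoh7 null went partly against its Bax label, and the sources used here do not give the deleted exons, so 3' reads of Bax from outside them would check nothing. The Bax null libraries also stood apart in other measures, with mitochondrial genes at 3.66% and 3.762% of ganglion cell UMIs against 1.038% to 1.135% in the other 4. In progenitor cells 39 genes were at 20 CPM or more in both Bax null libraries and under 5 CPM in the other 4. A batch of libraries and the loss of Atoh7 cannot be told apart in a contrast with Bax null. The Bax null Atoh7 null libraries shared 2596 cell barcodes, against 126 to 223 in each of the other 14 pairs of libraries. Under these barcodes lay 237 ganglion cells of replicate 1 (20.56%) and 260 of replicate 2 (22.85%), and 215 barcodes were ganglion cells in both. The UMI total in replicate 1 was a median of 0.3802 times that in replicate 2 (10th to 90th percentile 0.3651 to 0.4069). Whether these libraries are independent was not tested. Without the shared barcodes in replicate 1, 5388 genes in place of 5580 were called against Bax null.

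The levels of 10 ganglion cell markers were read beside the label. The label was itself given on expression, so high levels of such markers were built into the choice of cells and do not check it. All 10 were detected in every library. Their summed raw level was 7426 to 11860 CPM in ganglion cells and 81.4 to 148.5 CPM in progenitor cells of the same libraries. It was highest in both Bax null libraries (11350 and 11860 CPM), and the 4 Atoh7 null libraries lay between 7426 and 9469 CPM. Markers of 6 other cell types summed higher in the 4 Atoh7 null libraries, and those of red blood cells summed lower. In raw CPM of ganglion cells, 6 progenitor markers summed to 458 and 305 in Bax null against 969 to 1278 in the other 4, and 7 neurogenic markers to 1033 and 997 against 1747 to 2154. In the same order of groups, 5 horizontal cell markers summed to 531 and 523 against 1275 to 1535, 6 amacrine markers to 15.1 and 15.1 against 101 to 136, and 6 cone markers to 30.9 and 27.9 against 72.1 to 95.9. Tfap2b is in both the horizontal and the amacrine set, and it made up most of the amacrine sum in the 4 Atoh7 null libraries. The other amacrine markers were too low to be tested in the fits below, and 3 were at 0 in Bax null Atoh7 null replicate 2. Of the cone markers 0 or 1 was at 0 in each library, and 3 vessel markers summed to 9.26 and 9.17 CPM in Bax null against 23.4 to 45.5 elsewhere. The 4 red blood cell markers summed to 988 and 840.0 CPM in ganglion cells of Bax null against 4.39 to 218.5 in the other 4, and in progenitors to 923 and 799 CPM against 8.54 to 208. Pigment epithelium, lens and microglia markers each summed to at most 4.78 CPM. The part of these transcripts in the results below was not tested. Doublet scores marked 3.82% to 8.67% of the ganglion cells of a library, and their removal is among the alternatives.

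The promoters of 4 genes are shown because 2 of them fell and 2 rose in ganglion cells without Atoh7, and because Atoh7 belongs to a protein family that binds the short E-box motif CANNTG. Each window runs from 250 bases before to 50 bases after the annotated start (RefSeq, GRCm38.p6), 5′ to 3′ on the gene's strand, with each CAGCTG, and each CAGATG in either orientation, in capitals.
Isl1: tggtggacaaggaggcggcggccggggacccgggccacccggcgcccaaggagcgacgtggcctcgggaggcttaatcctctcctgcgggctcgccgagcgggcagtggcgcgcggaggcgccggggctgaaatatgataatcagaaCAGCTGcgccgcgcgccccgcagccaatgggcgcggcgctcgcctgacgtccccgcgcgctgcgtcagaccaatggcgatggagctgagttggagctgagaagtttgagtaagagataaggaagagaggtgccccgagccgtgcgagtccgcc
Sncg: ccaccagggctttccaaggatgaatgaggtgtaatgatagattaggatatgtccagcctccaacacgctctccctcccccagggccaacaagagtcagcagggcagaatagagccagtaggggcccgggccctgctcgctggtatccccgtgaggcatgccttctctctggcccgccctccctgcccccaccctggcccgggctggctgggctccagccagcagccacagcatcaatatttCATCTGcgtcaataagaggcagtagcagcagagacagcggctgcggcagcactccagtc
Fabp7: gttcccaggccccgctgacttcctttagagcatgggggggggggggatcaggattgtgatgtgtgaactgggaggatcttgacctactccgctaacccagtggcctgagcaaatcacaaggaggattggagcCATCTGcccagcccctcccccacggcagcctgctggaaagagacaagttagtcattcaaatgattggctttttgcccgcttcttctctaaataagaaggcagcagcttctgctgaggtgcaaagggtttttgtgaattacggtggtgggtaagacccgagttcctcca
Neurog2: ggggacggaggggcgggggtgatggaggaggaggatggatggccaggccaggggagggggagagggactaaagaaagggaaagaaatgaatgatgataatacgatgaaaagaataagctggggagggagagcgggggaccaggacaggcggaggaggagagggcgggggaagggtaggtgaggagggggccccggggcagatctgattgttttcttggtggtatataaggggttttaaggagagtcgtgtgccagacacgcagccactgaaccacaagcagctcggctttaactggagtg
The windows lie at chr13:116309639-116309938, minus strand, for Isl1, chr14:34374620-34374919, minus strand, for Sncg, chr10:57784673-57784972, plus strand, for Fabp7, and chr3:127632886-127633185, plus strand, for Neurog2. Isl1 had 1 CAGCTG, starting at base 148 of the window. Sncg had 1 CAGATG, read as CATCTG at base 242, and Fabp7 had 1 at base 133. Neurog2 had neither, and neither did the windows of Pou4f2 and Ebf1. Of 32851 promoter windows of this length in the same table, 16.3% held CAGCTG and 30.57% held at least 1 of CAGCTG and CAGATG, counting both strands. A match describes the letters of the window only.

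Ganglion cells of the Atoh7 null libraries lay in other clusters than those of the Bax null libraries. The authors' 20 ganglion cell clusters fell into 13 whose share was higher in both Bax null libraries than in any other, 6 with a lower share and 1 with overlapping shares. The 13 clusters held 89.22% and 89.31% of the ganglion cells of Bax null, 12.59% and 16.57% of Bax het Atoh7 null, and 18.47% and 13.8% of Bax null Atoh7 null. The 6 clusters held 9.368% and 9.548% of Bax null and 79.18% to 86.36% in the other 4. The shares were not tested, since clusters were formed on all genes of these cells and the libraries differ in depth and mitochondrial share.

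**Figure D1:**
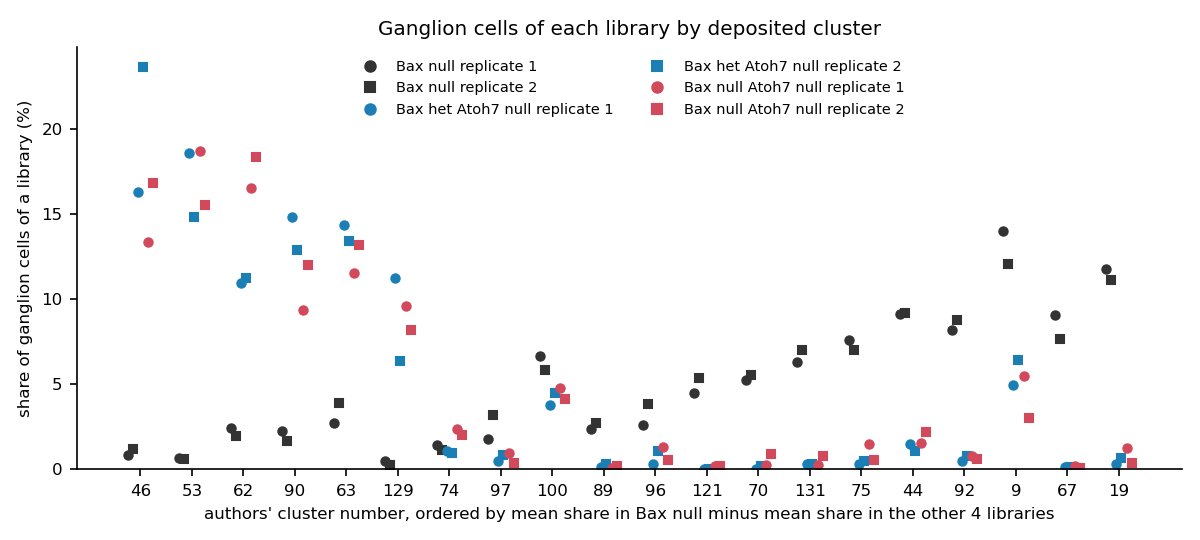
Share of the ganglion cells of each library (y axis, %) in each of the authors' 20 ganglion cell clusters (x axis, ordered from clusters with a higher share without Atoh7 to clusters with a higher share in Bax null). Points are libraries. The 6 clusters at the left together held at least 79.18% of the ganglion cells of each Atoh7 null library and at most 9.548% of each Bax null library.

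Clusters 53 and 90 were led, among ganglion cells, by genes such as Sstr2, Neurod1, Neurog2 and Gadd45g, which mark cells that have recently left the cell cycle. They held 2.935% and 2.228% of the ganglion cells of Bax null, 33.43% and 27.75% of Bax het Atoh7 null, and 28.1% and 27.59% of Bax null Atoh7 null. The remaining 3 of the 6 clusters (46, 63 and 1 smaller), led by genes such as Tfap2b, Fabp7, Myo6 and Tnr, held 4.007% and 5.347% of Bax null, 41.98% and 43.47% of Bax het Atoh7 null, and 34.52% and 38.22% of Bax null Atoh7 null. The 7 clusters with over 2000 CPM of Sncg (synuclein gamma, a marker of maturing ganglion cells) held 29.18% and 31.95% of Bax null and 2.249% to 5.551% of the others. Cluster 62, also of the 6, led by the stress genes Atf3, Nupr1, Chac1 and Asns, held 2.427% and 1.973% of Bax null, 10.94% and 11.27% of Bax het Atoh7 null, and 16.57% and 18.37% of Bax null Atoh7 null. In all 4 sets the Bax null libraries did not overlap with the others.

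In 5 clusters, called the shared clusters here, every library had at least 20 cells, so levels could be read within them in raw CPM. The TMM factors over all ganglion cells were 0.783 and 0.768 in Bax null and 1.085 to 1.207 in the other 4, and scaling by them would raise Bax null against the rest. A log2 change given below for the shared clusters is a fit to sums over all 5, without a term for cluster. Their mix differed between groups. Cluster 9 held 14% and 12.09% of ganglion cells of Bax null and 5.464% and 2.988% of Bax null Atoh7 null. Cluster 62 held 2.427% and 1.973% against 16.57% and 18.37%. The part of this mix in those changes was not tested. In cluster 9, whose leading genes against other cell types include Nefl and Sncg, raw Isl1 was 1042 and 1057 CPM for Bax null, 1317 and 1163 CPM for Bax het Atoh7 null and 915 and 946 CPM for Bax null Atoh7 null. The 95% counting intervals of Bax null (990.2 to 1097 and 999.7 to 1117 CPM) overlapped with those of Bax null Atoh7 null (775.5 to 1073 and 761.5 to 1161 CPM). They also overlapped with that of Bax het Atoh7 null replicate 2 (1035 to 1303 CPM), so no order of raw Isl1 is read within this cluster. Ebf1 (an early B cell factor of differentiating neurons) stood at 2518 and 2602 CPM for Bax null, 1186 and 1128 CPM for Bax het Atoh7 null and 885 and 779.5 CPM for Bax null Atoh7 null. Sncg was at 1526 and 1752 CPM for Bax null, 671 and 609 CPM for Bax het Atoh7 null and 650.3 and 416 CPM for Bax null Atoh7 null. Ebf1 and Sncg were both lower in all 4 Atoh7 null libraries than in Bax null within this cluster, which held 33 to 248 cells per library. Nefm (neurofilament medium chain) ran the other way there, with 2122 and 2020.0 CPM for Bax null, 4550.0 and 3891 CPM for Bax het Atoh7 null and 4847 and 4843 CPM for Bax null Atoh7 null. In cluster 63, Ebf1 was also lower in the Atoh7 null libraries, at 1139 and 1509 CPM for Bax null, 1064 and 1119 CPM for Bax het Atoh7 null and 688 and 806 CPM for Bax null Atoh7 null, with the lower Bax null library close to Bax het Atoh7 null. Cluster 90, of 26 to 137 cells per library, differed. There raw Ebf1 was not lower without Atoh7, at 243 and 225 CPM for Bax null. It was 339.9 and 297 CPM for Bax het Atoh7 null and 246 and 281 CPM for Bax null Atoh7 null. The 243 and 246 CPM were close together. In this cluster raw Isl1 was highest in Bax null, at 172 and 196 CPM. It was 94.2 and 94.7 CPM for Bax het Atoh7 null and 145 and 125 CPM for Bax null Atoh7 null.

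A pair of readings of every gene was fitted across the whole table. The first compared summed ganglion cells between groups (edgeR quasi-likelihood F test, Benjamini-Hochberg adjusted p under 0.05 is described as called). In it 5580 of 10586 genes were called in Bax null Atoh7 null against Bax null, 52.7% of those tested, 26.2% higher and 26.5% lower. The second compared the difference between ganglion and progenitor cells of the same library, in which a factor that a library adds to a gene in both cell types cancels. It was read for the 8639 genes at 5 CPM or more in the progenitor cells of every library, of which 18.8% were called, 10.6% with a higher and 8.28% with a lower ganglion cell level relative to progenitors. Called in both fits in the same direction were 12.5% of the 8394 genes with both values, 6.8% higher and 5.66% lower. Many ganglion cell genes are at trace levels in progenitors and have only the first reading. Scaling by library totals in place of TMM moved the median of all genes in the first fit from 0.02 to 0.63 on the log2 scale and in the second from 0.04 to -0.004, so the first fit gives changes relative to the median gene.

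Transcription factors of the ganglion cell programme changed in both directions without Atoh7, and Isl1 and Pou4f2 stayed present in all 4 Atoh7 null libraries. Of 48 listed factors, 40 were tested, 21 fell, 9 rose and 10 were not called in Bax null Atoh7 null against Bax null, with a median log2 change of -0.47 against 0.02 for all genes. Of the 15 with a within-library reading, 5 were lower, 3 higher and 7 not called, with a median of -0.19. Of all genes 26.5% fell and 26.2% rose in the first fit, and 8.28% were lower and 10.6% higher within libraries. In Bax het Atoh7 null 18 of the 40 fell and 8 rose, and in the shared clusters 15 of 36 were lower and 7 higher in Bax null Atoh7 null. With library totals 12 of the 40 were lower and 18 higher, so the direction of the list as a whole depends on the scaling.

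Isl1 (ENSMUSG00000042258, chromosome 13, 116298281 to 116309689, minus strand in GRCm38), a LIM homeobox factor needed for ganglion cell differentiation, was at 922 and 940.4 CPM in the Bax null libraries, 415 and 455 CPM in those of Bax het Atoh7 null and 397 and 471 CPM in those of Bax null Atoh7 null. Both Bax null libraries were above all 4 others, and the Atoh7 null groups overlapped. The fitted log2 change was -1.09 (SE 0.12, edgeR adjusted p 7.25e-06). Pou4f2, the POU factor that acts beside Isl1, was at 106 and 104 CPM in the Bax null libraries, 31.2 and 59 CPM in those of Bax het Atoh7 null and 42.4 and 44.8 CPM in those of Bax null Atoh7 null, again without overlap between Bax null and the rest. It fell by 1.25 on the log2 scale (SE 0.17, edgeR adjusted p 6.52e-05). Raw levels within single clusters, Bax null against Bax null Atoh7 null, did not all keep this order. In cluster 63 Isl1 was 729 and 853 against 697 and 1197 CPM, and Pou4f2 83.5 and 99.8 against 65.4 and 112.5 CPM. In cluster 62 Isl1 was 344 and 454 against 411 and 374 CPM. In cluster 90 Isl1 was highest in Bax null, and Pou4f2 overlapped (15.2 and 7.25 against 8.8 and 21.6 CPM). The part of the cluster shares in both falls was not tested.

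Ebf1 had the largest fall of the 15 listed factors with a within-library reading. Its levels were 2337 and 2455 CPM in the Bax null libraries, 653 and 668 CPM in those of Bax het Atoh7 null and 484 and 433 CPM in those of Bax null Atoh7 null, with no overlap between any of the groups. The log2 change was -2.37 (SE 0.12, edgeR adjusted p 1.17e-08) in the first fit and -2.0 (adjusted p 2.71e-18) within libraries, and with cones in place of progenitors it was -1.01 (adjusted p 5.98e-15). Its relative Ebf3 fell less, by 0.75 (edgeR adjusted p 3.34e-05), from 192 and 199 CPM to 108 and 122 CPM. In the 5 clusters that held at least 20 cells of every library the Ebf3 change was -0.03 (edgeR adjusted p 0.846), whereas Ebf1 fell there by 2.28. Zfhx3, a large zinc finger homeobox factor, changed by -1.43 in the first fit and by -0.92 within libraries, and the within-library call was lost in the shared clusters (adjusted p 0.179).

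The Iroquois factors, which are expressed in subsets of ganglion cells, fell further over all ganglion cells. Irx3 was at 121 and 134 CPM in the Bax null libraries, 1.42 and 2.93 CPM in those of Bax het Atoh7 null and 5.81 and 8.01 CPM in those of Bax null Atoh7 null, a log2 change of -4.19 (SE 0.17, edgeR adjusted p 1.47e-09). Irx5 was at 120.4 and 145 CPM in the Bax null libraries, 3.78 and 7.82 CPM in those of Bax het Atoh7 null and 13.3 and 20.4 CPM in those of Bax null Atoh7 null and changed by -2.97. Irx2 was at 81.6 and 82.9 CPM in the Bax null libraries, 9.46 and 8.48 CPM in those of Bax het Atoh7 null and 7.52 and 6.19 CPM in those of Bax null Atoh7 null and changed by -3.56. For each of the 3 genes every Atoh7 null library lay below every Bax null library. Irx3 and Irx5 were higher in both Bax null Atoh7 null libraries than in both Bax het Atoh7 null libraries, differences that were not called (edgeR adjusted p 0.0847 and 0.0519). In the sums over the shared clusters the change of Irx3 was -1.25 and that of Irx5 -1.07, smaller than over all ganglion cells and than the -2.28 of Ebf1 there. In cluster 9 raw Irx3 was 30.1 and 12.4 CPM for Bax null and 6.02 and 31.2 CPM for Bax null Atoh7 null. Raw Irx5 was 37.8 and 31.5 against 48.2 and 20.8 CPM, so these groups overlapped for both genes. Bax het Atoh7 null held 0 and 11.7 CPM of each. The clusters with the highest Irx3 (70 and 121) held at most 0.8787% of the ganglion cells of each Atoh7 null library. Eya2, a phosphatase and transcriptional cofactor, fell by 2.65, from 82.3 and 85.6 CPM to 13.7 and 12.7 CPM, and the Distal-less factors Dlx1 and Dlx2, which favour the ganglion and amacrine fates, changed by -1.04 and -1.29.

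Other factors were present at like levels or higher. Pou4f1, a relative of Pou4f2, was at 144 and 166 CPM in the Bax null libraries, 175 and 171 CPM in those of Bax het Atoh7 null and 128 and 157 CPM in those of Bax null Atoh7 null, so that Bax null overlapped with Bax null Atoh7 null. Its log2 change was -0.10 (SE 0.11, edgeR adjusted p 0.449), or 0.51 with library totals. Sox11, a factor that acts with Sox4 in ganglion cell survival and axon growth, was at 1754 and 1821 CPM in the Bax null libraries, 1774 and 1781 CPM in those of Bax het Atoh7 null and 1571 and 1691 CPM in those of Bax null Atoh7 null and changed by -0.12 (edgeR adjusted p 0.422), or 0.49 with library totals. Klf7, a zinc finger factor of axon growth, stood at 732 and 779 CPM in Bax null against 665 and 695 CPM in Bax null Atoh7 null (-0.14, edgeR adjusted p 0.3), or 0.47 with library totals. For both genes the Bax null libraries were slightly above those of Bax null Atoh7 null, without overlap. The within-library changes were -0.63 for Sox11 and -0.72 for Klf7, with higher progenitor levels of both in the Atoh7 null libraries, and the Klf7 value against cones was -0.02 (adjusted p 0.951). Satb1, a chromatin organiser, was not called in either fit, at 0.10 and -0.19.

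Sox4 rose, from 937 and 955 CPM in Bax null to 3228 and 3687 CPM in Bax null Atoh7 null and 3264 and 3842 CPM in Bax het Atoh7 null, with no overlap. The log2 change was 1.89 (SE 0.14, edgeR adjusted p 2.71e-07). In progenitors Sox4 was also higher in these libraries, at 359 to 395 CPM against 143 and 144 CPM, and the within-library change was 0.49 (adjusted p 1.39e-10). Foxp2, a forkhead factor found in a subset of ganglion cells, was at 5.65 and 5.18 CPM in the Bax null libraries, 20.8 and 16.6 CPM in those of Bax het Atoh7 null and 18.1 and 23.3 CPM in those of Bax null Atoh7 null, a rise of 1.94 in the first fit and of 1.87 within libraries.

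**Figure D2:**
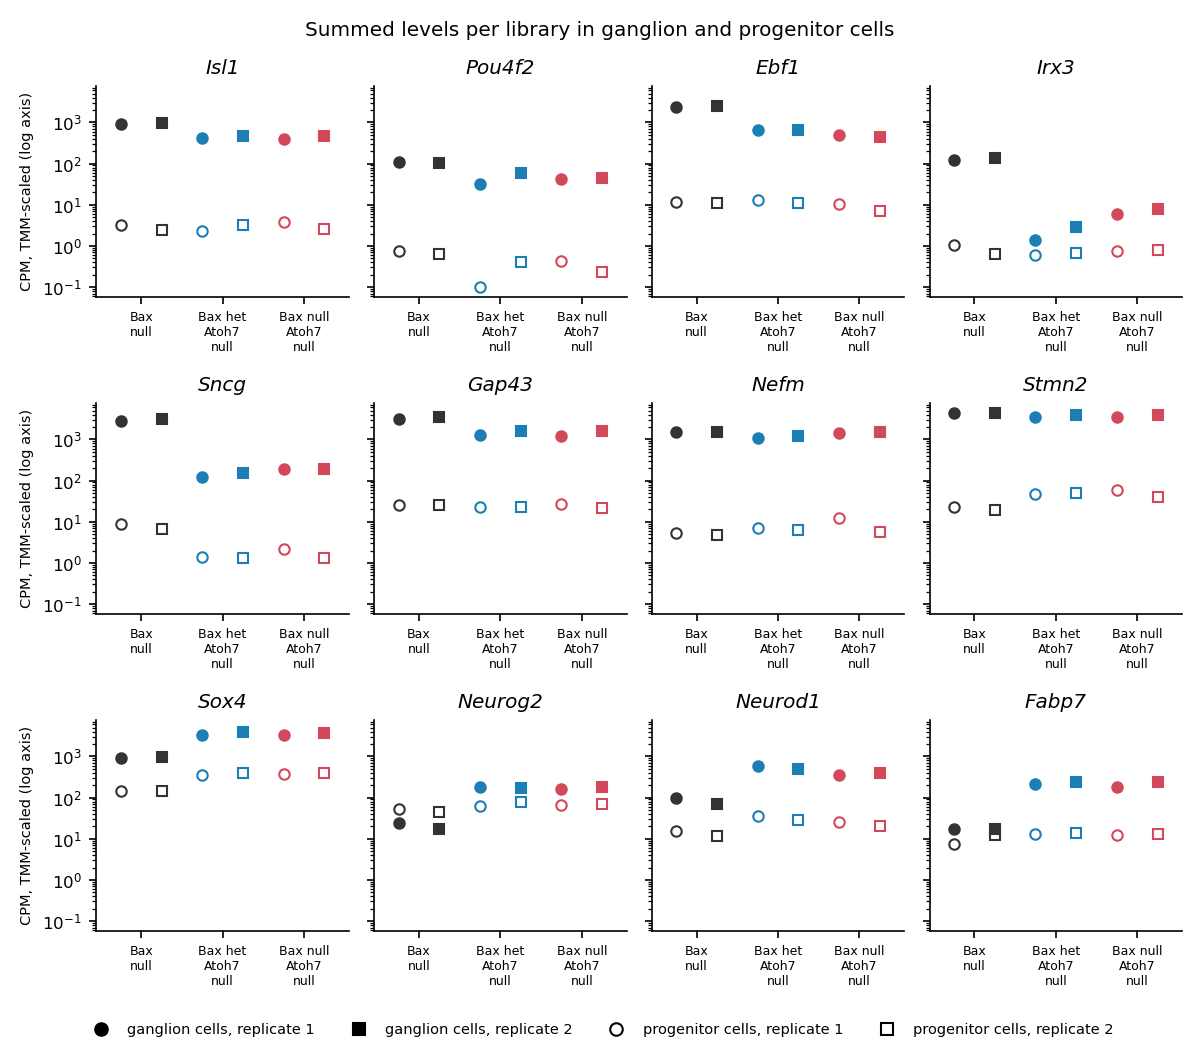
Level of 12 genes (y axis, TMM-scaled CPM, log axis) in summed ganglion cells (filled) and progenitor cells (open) of each library, circles for replicate 1 and squares for replicate 2, by group on the x axis. In ganglion cells Isl1, Pou4f2, Ebf1, Irx3, Sncg and Gap43 were highest in both Bax null libraries, the Nefm and Stmn2 levels of all 6 libraries lay close together, and Sox4, Neurog2, Neurod1 and Fabp7 were lowest there.

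The axon and cytoskeleton genes were the most one-sided of the neuronal lists. Of all genes 26.5% fell and 26.2% rose in the first fit, and 8.28% were lower and 10.6% higher within libraries. Of 39 axon and cytoskeleton genes, 37 were tested in ganglion cells, 23 fell, 4 rose and 10 were not called, with a median log2 change of -0.65. Within libraries 23 of 29 were lower and 0 higher, with 6 not called, and the median was -0.71 against 0.04 for all genes. Of the 29, 17 were lower in both fits: Crmp1, Dpysl2, Gap43, Gng3, Map1b, Map2, Mllt11, Stmn1, Stmn3, Tagln3, Tmsb10, Tppp3, Tuba1a, Tubb2a, Tubb2b, Tubb3 and Uchl1. With library totals the first fit gave 13 lower and 17 higher, whereas the within-library count stayed at 23 lower and 0 higher. With cones as the comparison 17 were lower and 2 higher.

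Sncg (ENSMUSG00000023064, chromosome 14, 34370274 to 34374789, minus strand in GRCm38) was at 2756 and 3103 CPM in the Bax null libraries, 123 and 156 CPM in those of Bax het Atoh7 null and 189.8 and 187 CPM in those of Bax null Atoh7 null. The Atoh7 null libraries lay far below the Bax null libraries, with Bax het Atoh7 null lowest. The log2 change in Bax null Atoh7 null was -3.94 (SE 0.15, edgeR adjusted p 7.36e-10), and -2.73 in the shared clusters. Gap43, a growth cone protein of growing axons, fell by 1.23 (SE 0.17, edgeR adjusted p 5.47e-05), from 3176 and 3580.0 CPM to 1217 and 1632 CPM, and its within-library change was -1.17. Within single clusters raw Gap43 had no common order. In cluster 63 it was lowest in Bax null, at 1177 and 1455 CPM. There it was 1808 and 2247 CPM for Bax het Atoh7 null and 1597 and 2378 CPM for Bax null Atoh7 null. In cluster 62 it was highest in Bax null (2605 and 3482 CPM). In cluster 9 Bax null (2602 and 2868 CPM) overlapped with Bax null Atoh7 null (2535 and 3076 CPM). Tppp3, a tubulin polymerisation protein, was at 267 and 316 CPM in the Bax null libraries, 53.9 and 59.7 CPM in those of Bax het Atoh7 null and 52.3 and 54.6 CPM in those of Bax null Atoh7 null and changed by -2.43 in the first fit and by -2.16 within libraries.

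The neurofilament genes did not move together. Nefl, the light chain, fell by 1.38 (SE 0.13, edgeR adjusted p 3.32e-06), from 1890.0 and 1873 CPM to 669 and 762 CPM. Within single clusters raw Nefl had no common order. In cluster 63 it was lowest in Bax null, at 801 and 856 CPM. There it was 1406 and 1320 CPM for Bax het Atoh7 null and 1074 and 1390 CPM for Bax null Atoh7 null. In cluster 62 it was highest in Bax null (1991 and 1850 CPM). In cluster 9 Bax null (2285 and 2122 CPM) overlapped with Bax null Atoh7 null (2192 and 2837 CPM). Nefm was at 1502 and 1539 CPM in the Bax null libraries, 1094 and 1224 CPM in those of Bax het Atoh7 null and 1421 and 1539 CPM in those of Bax null Atoh7 null, so that Bax null overlapped with Bax null Atoh7 null. The Nefm change was -0.02 (SE 0.12, edgeR adjusted p 0.884), or 0.59 with library totals. Ina, the alpha-internexin of young neurons, was at 1223 and 1280.0 CPM in the Bax null libraries, 1520.0 and 1186 CPM in those of Bax het Atoh7 null and 1530.0 and 1478 CPM in those of Bax null Atoh7 null and was not called (0.28, edgeR adjusted p 0.0944). The difference between these genes was not tested.

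Among microtubule genes, Mapt (tau) fell by 1.39, from 478 and 522 CPM to 183 and 195 CPM, and by 0.39 in the shared clusters. Stmn3, a stathmin that destabilises microtubules, was at 1233 and 1435 CPM in Bax null against 531 and 585 CPM in Bax null Atoh7 null, a change of -1.24 and of -2.08 within libraries. Map2 (a microtubule-associated protein of dendrites) changed by -0.96 and -1.56 and Map1b by -0.74 and -1.11. Tubb3, the neuronal beta tubulin, stood at 3681 and 3866 CPM in the Bax null libraries, 2456 and 2768 CPM in those of Bax het Atoh7 null and 2354 and 2759 CPM in those of Bax null Atoh7 null, a change of -0.55 (edgeR adjusted p 0.00394) that was lost without Bax null replicate 2 (adjusted p 0.053) and was 0.07 with library totals. Within libraries its change was -1.57 (adjusted p 1.01e-13).

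Several genes of the list were not called. Dcx (doublecortin, of migrating neurons) stood at 315 and 319 CPM in Bax null against 287 and 320.4 CPM in Bax null Atoh7 null, and its change was -0.05 (SE 0.09, edgeR adjusted p 0.702), or 0.56 with library totals. Ank2, an ankyrin that anchors membrane proteins, stood at 409.9 and 431 CPM and 442 and 439.8 CPM and was not called in either fit (0.09 and 0.06, edgeR adjusted p 0.482 and 0.625). Stmn2, a stathmin of growing axons, was at 4295 and 4473 CPM in the Bax null libraries, 3525 and 3854 CPM in those of Bax het Atoh7 null and 3491 and 3933 CPM in those of Bax null Atoh7 null and was not called in the first fit (-0.22, edgeR adjusted p 0.164, 0.39 with library totals). Relative to progenitors its change was -1.45, with progenitor levels of 22.4 and 19.2 CPM in Bax null and 39 to 59 CPM elsewhere, and relative to cones its value was -0.04 (adjusted p 0.809). Rtn1, a protein of the endoplasmic reticulum, showed the same split, with 0.08 in the first fit and -0.71 within libraries. For 11 of the 29 axon genes with both readings, and 5392 of 8394 of all genes, the estimate and 2 standard errors lay within a 2-fold change in both fits.

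**Figure D3:**
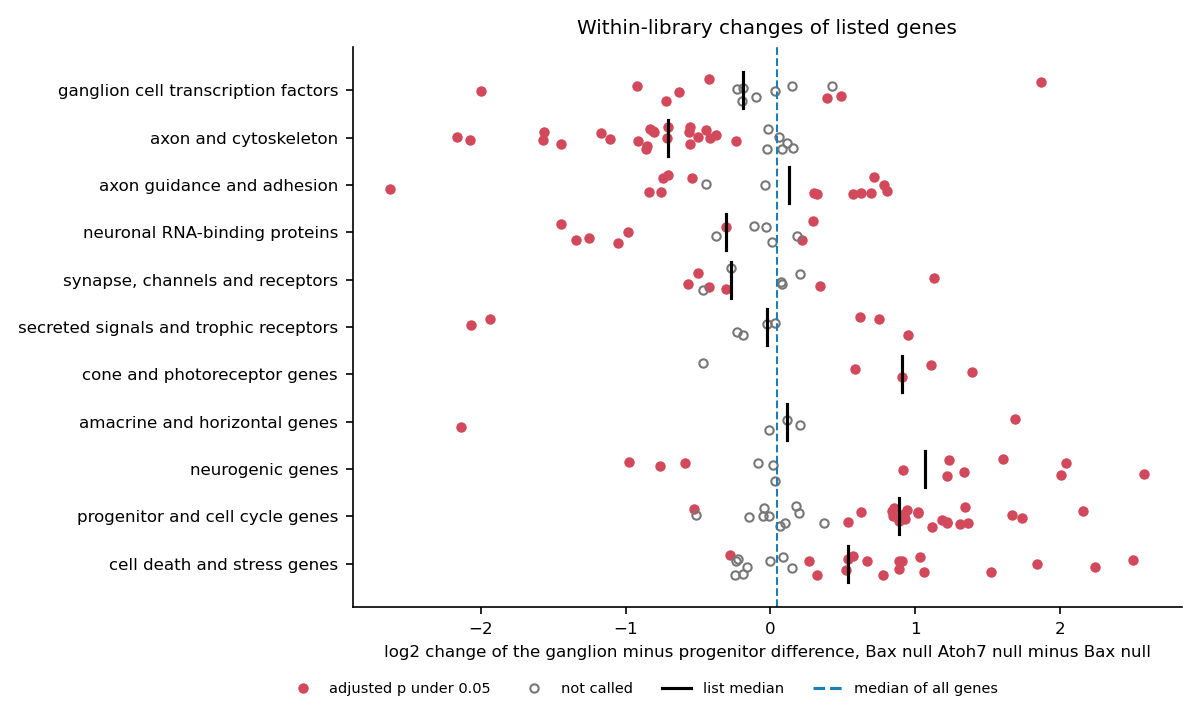
Within-library change (x axis, log2 change of the ganglion minus progenitor difference, Bax null Atoh7 null minus Bax null) of each listed gene at 5 CPM or more in progenitors, by list. Filled points had an adjusted p under 0.05, bars are list medians and the dashed line is the median of all genes, 0.04. The axon genes lie mostly left of the line, at a median of -0.71, and the neurogenic and progenitor genes mostly right of it, at 1.07 and 0.89.

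Axon guidance and adhesion genes changed in both directions, in the first fit in shares not far from those of all genes tested (26.2% higher and 26.5% lower). Of 33 tested, 11 rose, 12 fell and 10 were not called, with a median of -0.05. Within libraries the shares were above those of all genes (10.6% higher and 8.28% lower), with 8 of 16 higher and 6 lower. Higher in both fits were Efna5, Efnb2, Epha3, Epha4, Epha5 and Slit2, and lower in both were Ephb1, Ephb2 and Igfbpl1. Ephb1, the receptor that steers ventral axons to the same side of the brain, was at 10.7 and 9.16 CPM in the Bax null libraries, 1.42 and 2.93 CPM in those of Bax het Atoh7 null and 1.71 and 2.18 CPM in those of Bax null Atoh7 null, a change of -2.32 (SE 0.35, edgeR adjusted p 0.000142) and of -2.62 within libraries. Epha3, a receptor of topographic mapping, was at 10.8 and 8.68 CPM in the Bax null libraries, 51.5 and 55.1 CPM in those of Bax het Atoh7 null and 45.1 and 48.8 CPM in those of Bax null Atoh7 null, and its ligand Efna5 at 68.5 and 53 CPM in the Bax null libraries, 165 and 168 CPM in those of Bax het Atoh7 null and 146 and 152 CPM in those of Bax null Atoh7 null, so both were higher in all 4 Atoh7 null libraries. The first fit gave 2.28 and 1.31. Progenitors of these libraries also held more of both, and the within-library changes were 0.80 and 0.62, which were not called in the shared clusters (adjusted p 0.993 and 0.385) and for Epha3 without Bax null replicate 2 (adjusted p 0.148).

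Islr2, an axon membrane protein, fell by 2.36, from 205 and 219.5 CPM to 44.5 and 36.8 CPM. Robo3, a receptor of midline crossing, rose by 3.02, from 1.6 and 1.69 CPM to 14.4 and 12.4 CPM. Cxcr4, a chemokine receptor of ganglion cells that have just formed, was at 10.9 and 10.4 CPM in Bax null and at 0 to 0.34 CPM in the other 4, and was called lower (edgeR adjusted p 6.85e-06). Ncam1, a general adhesion molecule, stood at 301 and 331 CPM and 289 and 314 CPM and was not called (-0.05, edgeR adjusted p 0.682, 0.56 with library totals).

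Of 19 neuronal RNA-binding proteins 7 were lower, 5 higher and 7 not called, with a median of -0.13. In this first fit the shares were again not far from the 26.5% lower and 26.2% higher of all genes. Within libraries 6 of 13 were lower and 2 higher, against 8.28% and 10.6% of all genes. Rbpms, which marks ganglion cells in the mature retina, was at 159 and 163 CPM in the Bax null libraries, 42.1 and 43.7 CPM in those of Bax het Atoh7 null and 33.2 and 37.9 CPM in those of Bax null Atoh7 null, without overlap. It fell by 2.17 (SE 0.11, edgeR adjusted p 7.45e-09), and its within-library change was -1.45. Its relative Rbpms2 changed by -1.47 and -0.98, and Elavl4, a Hu protein of neurons, by -1.06 (edgeR adjusted p 0.000113), from 957 and 983 CPM to 422 and 498 CPM. Rbfox1, a splicing factor, fell by 2.16, from 16.7 and 13.7 CPM to 2.39 and 4.37 CPM, whereas Nova1, another splicing factor, was not called at -0.13 (SE 0.22, edgeR adjusted p 0.657). Khdrbs2 fell in ganglion cells, from 78.1 and 69.1 CPM to 47.5 and 44.4 CPM, and was higher in progenitors of the same libraries (35 and 35.3 CPM against 55.4 and 59.3 CPM).

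Of 38 synapse, channel and receptor genes 13 were higher, 13 lower and 12 not called, with a median of 0.09, and all genes were divided as evenly (26.2% higher and 26.5% lower). Only 11 had a within-library reading, 2 higher and 4 lower, where 10.6% of all genes were higher and 8.28% lower. Slc17a6, the vesicular glutamate transporter that defines ganglion cells as excitatory, was at 18.9 and 18.6 CPM in the Bax null libraries, 2.84 and 5.54 CPM in those of Bax het Atoh7 null and 2.05 and 4 CPM in those of Bax null Atoh7 null, and fell by 2.62 (SE 0.29, edgeR adjusted p 1.17e-05). Scn3b, a sodium channel subunit, fell by 2.01, from 21.1 and 24.9 CPM to 5.13 and 6.19 CPM. Gria2, a glutamate receptor subunit, rose by 1.27, from 32.5 and 35.7 CPM to 79.3 and 83 CPM, and Nrxn3, a presynaptic adhesion protein, by 2.13, from 27.1 and 23.1 CPM to 100.5 and 118 CPM. With library totals 24 of the 38 were higher and 5 lower.

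Secreted signals and trophic receptors were mostly lower, with 13 of 23 falling, 6 rising and a median of -0.91, although within libraries 2 of 9 were lower and 3 higher. The shares of all genes were 26.5% lower and 26.2% higher in the first fit, and 8.28% and 10.6% within libraries. Among ligands, Gal (the neuropeptide galanin) was at 787 and 917 CPM in the Bax null libraries, 76.6 and 77.9 CPM in those of Bax het Atoh7 null and 93 and 72.4 CPM in those of Bax null Atoh7 null, a change of -3.35 (SE 0.13, edgeR adjusted p 1.36e-09). The trace of Gal in progenitors was lower too, from 7.68 and 7.02 CPM to 0.588 to 1.24 CPM, and in the shared clusters the ganglion cell change was -0.87. Ptn (pleiotrophin, a growth factor) was at 232 and 235 CPM in the Bax null libraries, 56.7 and 56.4 CPM in those of Bax het Atoh7 null and 66 and 60.1 CPM in those of Bax null Atoh7 null and changed by -1.87 in the first fit and by -2.06 within libraries. Pcsk1n, a secretory granule protein, changed by -2.26 and by -1.94. The neuropeptide genes Tac1 and Sst also fell, Tac1 from 33.1 and 41.2 CPM to 2.05 and 0.728 CPM and Sst from 167 and 165 CPM to 33.9 and 42.6 CPM.

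Ngfr, a receptor for neurotrophins, was at 44.2 and 46.3 CPM in Bax null against 15.1 and 13.5 CPM in Bax null Atoh7 null (log2 change -1.65, edgeR adjusted p 2.13e-06). Gdf11, a secreted signal by which ganglion cells limit their own number, rose by 0.87 and by 0.75 within libraries, and the latter was lost in the shared clusters (adjusted p 0.131) and with cones as the comparison (adjusted p 0.422). Its levels were 34.1 and 28.3 CPM in the Bax null libraries, 61.5 and 56.1 CPM in those of Bax het Atoh7 null and 60.2 and 52.8 CPM in those of Bax null Atoh7 null.

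More neurogenic, progenitor, cone and amacrine or horizontal genes rose than fell in summed ganglion cells of Bax null Atoh7 null, and not all of these counts held in the other readings. The shares of all genes were 26.2% higher and 26.5% lower in the first fit, and 10.6% and 8.28% within libraries. Of 21 neurogenic genes, 13 rose and 2 fell in the first fit, with a median of 1.15, and within libraries 8 of 14 were higher and 3 lower, with a median of 1.07. Of 33 tested progenitor and cell cycle genes, 17 rose and 5 fell, with a median of 0.55, and within libraries 22 of 33 were higher and 1 lower. The latter count was 7 higher and 2 lower with cones as the comparison, and 15 higher and 1 lower without Bax null Atoh7 null replicate 1. Of 12 cone and photoreceptor genes 7 rose and 3 fell, and of 11 amacrine and horizontal genes 7 rose and 2 fell. In the shared clusters 2 of 8 cone genes were higher and 3 lower. Within libraries 4 of 5 cone genes were higher and 0 lower, and in the shared clusters 1 of the 5. Of 5 amacrine and horizontal genes 1 was higher and 1 lower within libraries, with a median of 0.11, and against cones 0 of 4 were called, with a median of -0.92. The marker sums given above were higher in the same libraries, and the part of other cells' RNA in these counts was not tested.

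Neurog2, a proneural factor of progenitors about to differentiate, was at 24.2 and 17.4 CPM in the Bax null libraries, 181 and 166 CPM in those of Bax het Atoh7 null and 157 and 181 CPM in those of Bax null Atoh7 null in ganglion cells, with no overlap. It rose by 3.04 (SE 0.14, edgeR adjusted p 4.49e-09), by 2.58 within libraries and by 1.08 (adjusted p 0.0234) against cones. In progenitors Neurog2 was at 53.4 and 44.5 CPM in the Bax null libraries, 64 and 76.5 CPM in those of Bax het Atoh7 null and 67 and 69.4 CPM in those of Bax null Atoh7 null, a smaller difference between the groups than in ganglion cells. Gadd45g, a stress and differentiation gene switched on as cells leave the cycle, rose by 2.22 and 2.04, from 53 and 50.5 CPM to 228 and 249 CPM. Insm1, a zinc finger factor of newborn neurons, rose by 2.31 and 1.61, and Mybl1, a Myb factor, by 2.40 and 2.01. Sstr2, a somatostatin receptor, was at 10.6 and 10.1 CPM in the Bax null libraries, 95.5 and 85.1 CPM in those of Bax het Atoh7 null and 73.5 and 83.7 CPM in those of Bax null Atoh7 null (2.94, edgeR adjusted p 3.55e-09).

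Fabp7, a lipid-binding protein of radial glia and immature neurons, had the largest rise of the genes called in both fits. It was at 17.7 and 17.5 CPM in the Bax null libraries, 218 and 241 CPM in those of Bax het Atoh7 null and 185 and 239.9 CPM in those of Bax null Atoh7 null, against 7.28 and 12.4 and 12.5 to 13.6 CPM in progenitors of Bax null and of the other 4 libraries. The rise was 3.61 (SE 0.14, edgeR adjusted p 8.35e-10), 3.24 within libraries and 3.34 against cones. Ccnd1, the D cyclin of retinal progenitors, was at 142 and 107 CPM in the Bax null libraries, 307 and 295 CPM in those of Bax het Atoh7 null and 332 and 313 CPM in those of Bax null Atoh7 null, a rise of 1.39 and of 1.67 within libraries. Sox2 and Sox9, progenitor factors, rose by 1.92 and 1.95 and within libraries by 1.36 and 2.16. Hes1, a target of Notch, fell by 1.97 in ganglion cells and was higher relative to progenitors (1.34), where its level was 2048 and 2199 CPM in Bax null and 219 to 358 CPM elsewhere. The within-library value of Hes1 was lost without Bax null Atoh7 null replicate 1 (adjusted p 0.0576) and was 0.10 against cones.

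Among genes of other fates, Neurod1, a factor of photoreceptors and amacrine cells, was at 96.6 and 69.8 CPM in the Bax null libraries, 575 and 492 CPM in those of Bax het Atoh7 null and 346 and 385 CPM in those of Bax null Atoh7 null. All 4 Atoh7 null libraries were above Bax null, and the changes were 2.15 (SE 0.15, edgeR adjusted p 1.61e-07) and 1.39 within libraries. In the shared clusters they were 0.80 (adjusted p 9.7e-05) and 0.09 (adjusted p 0.777). Otx2, the photoreceptor and bipolar fate factor, was at 18.2 and 14.2 CPM in the Bax null libraries, 28.4 and 23.8 CPM in those of Bax het Atoh7 null and 41.4 and 38.2 CPM in those of Bax null Atoh7 null and rose by 1.31 and 1.11, the latter lost in the shared clusters (adjusted p 0.211). Tfap2b, an AP-2 factor of amacrine and horizontal cells, was at 12.9 and 12.2 CPM in the Bax null libraries, 107 and 108 CPM in those of Bax het Atoh7 null and 83.4 and 109.6 CPM in those of Bax null Atoh7 null, a rise of 2.96 (SE 0.14, edgeR adjusted p 6.82e-09).

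Not all genes of these lists rose. Rxrg, a retinoid receptor of cones and ganglion cells, fell from 18.5 and 20.7 CPM to 1.71 and 0.364 CPM, and Calb2 (calretinin), which also marks ganglion cells, from 52.3 and 65.4 CPM to 3.76 and 1.82 CPM. Both falls were called (edgeR adjusted p 1.94e-06 and 4.58e-08). Gad2, a GABA-synthesising enzyme, fell in ganglion cells by 1.08, from 53.3 and 51.5 CPM to 24.3 and 24.8 CPM.

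Cell death and stress genes were higher as a list, which was chosen with earlier results of these data known. The shares of all genes were 26.2% higher and 26.5% lower in the first fit, and 10.6% and 8.28% within libraries. Of 35 stress genes tested, 21 rose and 3 fell in Bax null Atoh7 null against Bax null, with a median of 1.25. Within libraries 16 of 25 stress genes were higher and 1 lower, with a median of 0.53. Those higher in both fits included Asns, Atf5, Bak1, Bcl2, Bcl2l11, Ddit3, Jun, Mdm2, Phlda3 and Slc7a5, and Bad was lower in both. With cones as the comparison 8 were higher and 0 lower. Ddit3 (CHOP), a factor of the unfolded protein response, was at 38.7 and 38.2 CPM in the Bax null libraries, 104 and 81.2 CPM in those of Bax het Atoh7 null and 159 and 144 CPM in those of Bax null Atoh7 null and rose by 2.0 (SE 0.12, edgeR adjusted p 4.06e-08) and by 1.84 within libraries. Asns, the asparagine synthetase induced by amino acid shortage, was at 23 and 22.4 CPM in the Bax null libraries, 75.6 and 82.8 CPM in those of Bax het Atoh7 null and 115 and 120.5 CPM in those of Bax null Atoh7 null and rose by 2.39 and 0.89. Atf3, a factor induced by axon injury and stress, was at 0.491 and 0.603 CPM in the Bax null libraries, 16.1 and 16.6 CPM in those of Bax het Atoh7 null and 40.0 and 45.9 CPM in those of Bax null Atoh7 null, and in progenitors at 5.59 and 5.7 CPM in the Bax null libraries, 3.66 and 3 CPM in those of Bax het Atoh7 null and 3.73 and 3.16 CPM in those of Bax null Atoh7 null. Its level was near 0 in ganglion cells of Bax null only, and in progenitors the Bax null libraries were the highest.

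Over all genes, those with the largest change in both fits were named by a fixed rule, from 857 eligible genes of which 432 were lower and 425 higher. The 10 lowest included Crnde, Ly6h, Tppp3, Snhg11, Igfbp5, Ablim1, Zdbf2, Ebf1 and Pcsk1n. Ly6h, a membrane protein of neurons, changed by -2.43 and -2.19, but by 0.10 and 0.38 in the shared clusters. Crnde, a noncoding RNA, changed by -2.95 and -2.70, and the latter was 0.02 in the shared clusters. The 10 highest were Fabp7, Phgdh, Neurog2, Pacsin1, Mn1, Slc7a5, Myo6, Creb5, Gadd45g and Mybl1. Phgdh, the first enzyme of serine synthesis, was at 4.3 and 2.89 CPM in the Bax null libraries, 18 and 20.5 CPM in those of Bax het Atoh7 null and 34.2 and 31.7 CPM in those of Bax null Atoh7 null and rose by 3.21 and 3.38, and Slc7a5, an amino acid transporter, by 2.68 and 2.24.

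Among genes under 5 CPM in progenitors of some library, the rule named Fam177a, Sumo2, Pgam1, Tax1bp3, Mpc1, Oser1, Lmo2, Srp54b, Mrps18b and Hba-x as lowest. In 9 of these 10 the progenitors of Bax null also held at least 5 CPM. Sumo2, which all cells use, was at 2002 and 2052 CPM in ganglion cells and 1731 and 1768 CPM in progenitors of Bax null and 1.42 to 2.05 CPM and 1.03 to 2.54 CPM in those cells of the other 4 libraries. The level was thus as low in progenitors as in ganglion cells of these 4. In all, 39 genes were at 20 CPM or more in progenitors of both Bax null libraries and under 5 CPM in the other 4. The submitters' processing notes name the same Cell Ranger version and build for all 6 libraries, the gene annotation is not given in the sources used here, and whether a difference in processing set these values was not tested. The exception among the 10 was Lmo2, a LIM-only protein, at 40.8 and 39 CPM in ganglion cells of Bax null, 0 to 1.63 CPM in the other 4 and under 1 CPM in all progenitors (edgeR adjusted p 1.31e-07). The highest were Slc7a3, Atf3, Cacng3, Nupr1, Chac1, Sesn2, Trib3, Synpr, Klc3 and Csn3. Synpr, a synaptic vesicle protein, was at 3.44 and 2.77 CPM in the Bax null libraries, 53.4 and 42.7 CPM in those of Bax het Atoh7 null and 42.4 and 41.5 CPM in those of Bax null Atoh7 null, and Cacng3, a glutamate receptor and calcium channel subunit, at 0.491 and 0.723 CPM in the Bax null libraries, 15.1 and 24.4 CPM in those of Bax het Atoh7 null and 33.9 and 41.9 CPM in those of Bax null Atoh7 null. A further rule, added after the values were seen, kept genes under 5 CPM in progenitors of all 6 libraries, and its lowest were Lmo2, Fxyd7, Tac1, Ecel1, Calb2, Irx3, Grm2, Irx2, Rgs6 and Cda.

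Bax het Atoh7 null against Bax null differs in both genes and shares its Bax null libraries with the contrast above, so its values are set beside those and give no independent support. The first fit called 5297 of 10586 genes (50%), 25% higher and 25% lower, and the second 18.2%, 9.6% higher and 8.61% lower, with 11.3% called in both (5.94% higher and 5.36% lower). Of the listed transcription factors 18 of 40 fell and 8 rose, and of the axon and cytoskeleton genes 21 of 37 fell and 3 rose (23 of 29 lower within libraries). Isl1 changed by -1.07 (SE 0.12, edgeR adjusted p 9.73e-06), Pou4f2 by -1.14, Ebf1 by -1.84, Irx3 by -5.75, Sncg by -4.37 and Gap43 by -1.20. Nefm fell by 0.37 (edgeR adjusted p 0.0196), a call lost without Bax het Atoh7 null replicate 1 or either Bax null replicate (adjusted p 0.154, 0.0994 and 0.136), and its value was 0.12 with library totals and 0.11 in the shared clusters. Neurog2 rose by 3.08, Fabp7 by 3.73 and Neurod1 by 2.70. Of the stress genes 19 of 35 rose and 5 fell, with a median of 0.62, and within libraries 8 of 25 were higher and 2 lower. Phlda3 (a p53 target) was not called at 0.16, and Bbc3 (PUMA, a p53-induced killer protein) fell by 0.61.

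Bax null Atoh7 null against Bax het Atoh7 null compares ganglion cells that all lack Atoh7 and lie on the same side of the library split. Fewer genes were called. The fit called 248 of 10586 (2.34%), 26 higher (0.246%) and 222 lower (2.1%) in Bax null Atoh7 null. Of the listed transcription factors 2 of 40 were called (Ebf1 and Bhlhe22), of the axon genes 2 of 37 (Dpysl2 and Tmsb10), of the guidance genes 1 of 33 (Epha5), of the cone genes 2 of 12 (Neurod4 and Rorb), of the progenitor genes 3 of 33 (Dapl1, Hmgb2 and Pax6) and of the secreted signals 1 of 23 (Sst), all lower. Of the synapse genes 1 of 38 was called (Cacng3, higher), of the neurogenic genes 0 of 21 and of the RNA-binding proteins 0 of 19. Isl1 differed by -0.01 (SE 0.12, edgeR adjusted p 0.985), Gap43 by -0.03 and Neurog2 by -0.04, and none was called. Sncg differed by 0.42 (SE 0.14, edgeR adjusted p 0.183), with both Bax null Atoh7 null libraries above both others.

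Some of these calls rested on single libraries. Ebf1 differed by -0.53 (edgeR adjusted p 0.0339), a call lost without any 1 of the Bax null or Bax het Atoh7 null libraries (adjusted p 0.1 to 0.258) and without the shared barcodes (0.0916). Sst differed by -0.84 (edgeR adjusted p 0.0146), which was lost without Bax het Atoh7 null replicate 1 (0.111). The 222 lower genes had a median of -0.84 in ganglion cells and -0.74 in progenitors, and in 213 of them both progenitor sums were also below both of the other group. Their largest were Bax (-2.02, edgeR adjusted p 0.00345), Usmg5, Toporsos, Atp5k and Pet100, and Usmg5, a subunit of the ATP synthase, was at 448 and 500.4 CPM against 164 and 89.5 CPM in ganglion cells and 269 and 283 against 106 and 57.6 CPM in progenitors. DESeq2 did not call Bax (adjusted p 0.0668). Neurod1 was not called over all ganglion cells (-0.55, edgeR adjusted p 0.0658) and was -0.60 in the shared clusters (adjusted p 0.012).

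The 26 higher genes had a median of 0.84 in ganglion cells and 0.14 in progenitors, and 1 of the 26 was higher by 0.5 or more on the log2 scale in progenitors. Cell death and stress genes made up 10 of the 26. Of 35 tested stress genes these 10 (28.57%) were called higher and 0 lower, against 0.246% higher and 2.1% lower of all genes. Of the 25 stress genes that were not called 18 had a higher and 7 a lower fitted level. The list was chosen with earlier results of these data known, so its count of calls gives no independent support.

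Within the integrated stress response, in which Atf4 drives genes of amino acid supply, Atf3 was at 16.1 and 16.6 CPM in Bax het Atoh7 null against 40.0 and 45.9 CPM in Bax null Atoh7 null, a difference of 1.38 (SE 0.17, edgeR adjusted p 0.00135). In progenitors the Atf3 difference was 0.04. Ddit3 was at 104 and 81.2 and 159 and 144 CPM (0.73, SE 0.12, edgeR adjusted p 0.00615), Atf5 at 61.5 and 58.4 and 98.8 and 120.5 CPM (0.87, edgeR adjusted p 0.00509) and Asns at 75.6 and 82.8 and 115 and 120.5 CPM (0.56, edgeR adjusted p 0.011). Atf4 itself differed by 0.48 (edgeR adjusted p 0.0366) and Ddit4, an inhibitor of growth signalling, by 0.51 (edgeR adjusted p 0.0395). Both libraries of Bax null Atoh7 null lay above both of the other group for all 6 genes.

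Among targets of p53, Cdkn1a (p21, an inhibitor of the cell cycle) was at 15.1 and 11.7 and 30.4 and 33.9 CPM (1.28, SE 0.19, edgeR adjusted p 0.00377) and Bbc3 at 63.8 and 63.9 and 107 and 109 CPM (0.76, SE 0.11, edgeR adjusted p 0.0023). Bbc3 was at 95 and 103 CPM in Bax null, close to Bax null Atoh7 null (0.15, edgeR adjusted p 0.192). Phlda3 differed by 1.59 (edgeR adjusted p 0.0456) and Hrk, a killer protein of neurons deprived of trophic support, by 1.26 (edgeR adjusted p 0.0426). Mdm2 and Ccng1, further targets of p53, were not called at 0.09 and -0.28 (edgeR adjusted p 0.826 and 0.56).

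The number of these 10 that were called changed with single libraries. Without Bax het Atoh7 null replicate 2 it was 2 of the 10, Atf3 and Bbc3, without Bax het Atoh7 null replicate 1 it was 6, and without either Bax null library it was 6. With the shared barcodes left out of Bax null Atoh7 null replicate 1 it was 7, and with DESeq2 6. All 10 kept a higher level under every alternative run. Without replicate 1 of those labelled Bax null Atoh7 null, whose Bax level went partly against its label, 8 of the 10 were called. Of the 10, 6 were also higher in both progenitor sums of Bax null Atoh7 null, namely Cdkn1a, Hrk, Atf5, Bbc3, Ddit4 and Atf4, by 0.16 to 0.38 on the log2 scale.

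**Figure D4:**
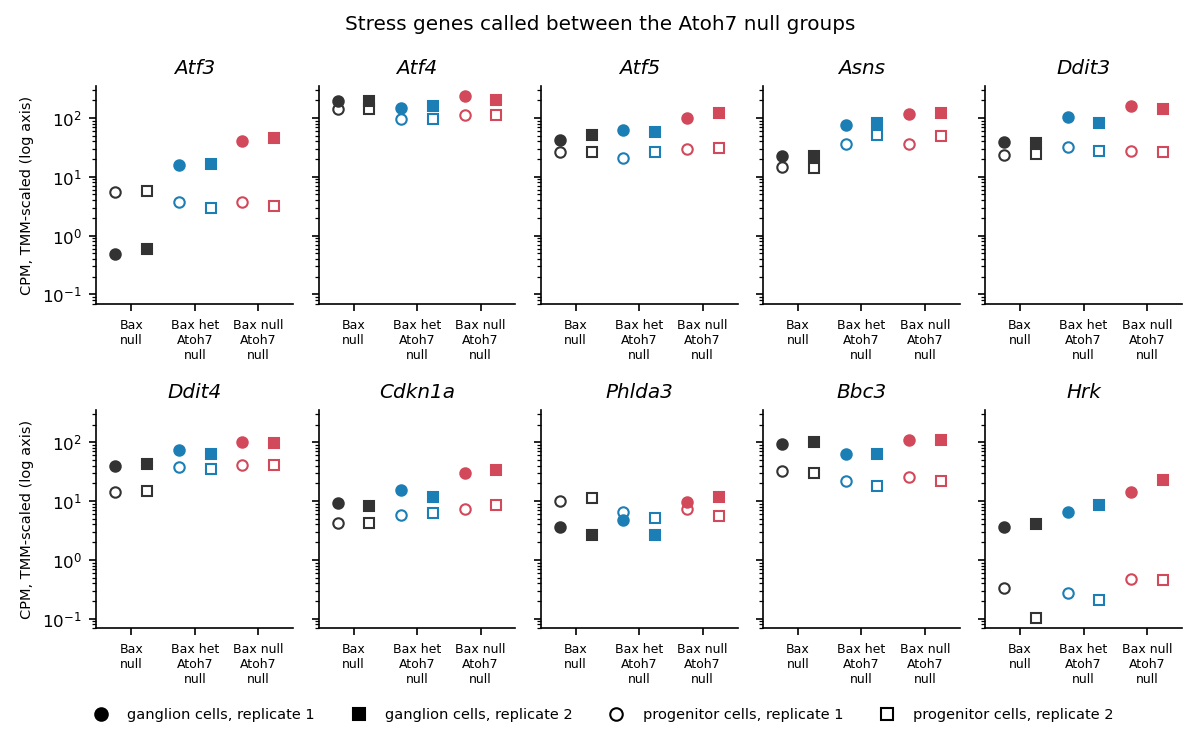
Level (y axis, TMM-scaled CPM, log axis) of the 10 stress genes called between the Atoh7 null groups, in ganglion cells (filled) and progenitor cells (open) of each library, by group on the x axis. In ganglion cells both Bax null Atoh7 null libraries are above both Bax het Atoh7 null libraries for every gene, and for Atf3, Asns and Ddit3 the progenitor levels do not follow.

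Shares of cells with a transcript show whether a change of the sum runs through many cells. Each ganglion cell was thinned to 1000 UMIs, which left out 0 to 80 ganglion cells per library, and the share in cones of the same library was measured in the same way. Isl1 was found in 46.2% and 46.89% of ganglion cells of Bax null, 24.59% and 31.63% of Bax het Atoh7 null, and 27.68% and 33.09% of Bax null Atoh7 null, against 0.411% to 2.141% of cones. Without thinning the Isl1 shares were 88.37% and 89.75% in Bax null and 41.98% to 47.44% elsewhere. Sncg was found in 43.13% and 46.95% of Bax null, 6.897% and 7.765% of Bax het Atoh7 null, and 12.02% and 10.72% of Bax null Atoh7 null, against at most 0.6849% of cones. For both genes the Bax null libraries lay above those of each Atoh7 null group beyond the Wilson 95% intervals, which cover counting error only. With 2 libraries against 2 an exact permutation test cannot give a p below 0.33, and none was made.

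Pou4f2 was found in 7.775% and 7.9% of ganglion cells of Bax null, 3.448% and 5.208% of Bax het Atoh7 null, and 4.66% and 5.638% of Bax null Atoh7 null, against at most 0.6711% of cones. Gap43 was found in 62.03% and 64.35% of Bax null and 63.87% to 73.38% of the other 4, so its share did not follow its CPM and no order is read from it. Elavl4 was found in 44.67% and 45.73% of Bax null and in 29.92% to 40.06% of the other 4, against 4.688% to 7.606% of cones.

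The share of ganglion cells with Neurod1 was 6.867% and 4.817% for Bax null, 41.98% and 37.41% for Bax het Atoh7 null, and 32.53% and 34.1% for Bax null Atoh7 null, below the 64.84% to 81.27% of cones, where the gene is active. Neurog2 was found in 1.589% and 1.413% of Bax null and 15.75% to 19.94% of the other 4, against at most 5.369% of cones. Tfap2b was found in 0.7946% and 0.578% of Bax null and 7.646% to 9.704% of the other 4, against at most 0.5618% of cones. Within each library the share with Isl1 was lower among ganglion cells with Neurod1 than among those without. In Bax null Atoh7 null it was 19.2% of 349 cells against 31.77% of 724 in replicate 1, and 26.56% of 369 against 36.47% of 713 in replicate 2. In Bax null it was 30.58% of 121 against 47.35% of 1641, and 36% of 75 against 47.44% of 1482. 

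Atf3 was found in 3.075% and 4.621% of ganglion cells of Bax null Atoh7 null, 1.049% and 1.231% of Bax het Atoh7 null, and 0.1135% and 0.06423% of Bax null, against 0.4474% to 1.757% of cones. The share in Bax null was below that in cones of the same library in both replicates and is read as background. In Bax het Atoh7 null it was 1.049% against 1.124% of cones in replicate 1 and 1.231% against 0.5479% in replicate 2, so no reading is made there. In Bax null Atoh7 null, Sncg was found in 27.27% of the 33 cells with Atf3 against 11.54% of 1040 without in replicate 1, and in 36% of 50 against 9.496% of 1032 in replicate 2. Neurod1 was found in 21.21% against 32.88%, and in 14% against 35.08%. Ddit3 was found in 13.89% and 14.14% of Bax null Atoh7 null and in 2.248% to 9.895% of the other 4, and 9.48% to 17.19% of cones, so only its order between ganglion cells is given.

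**Figure D5:**
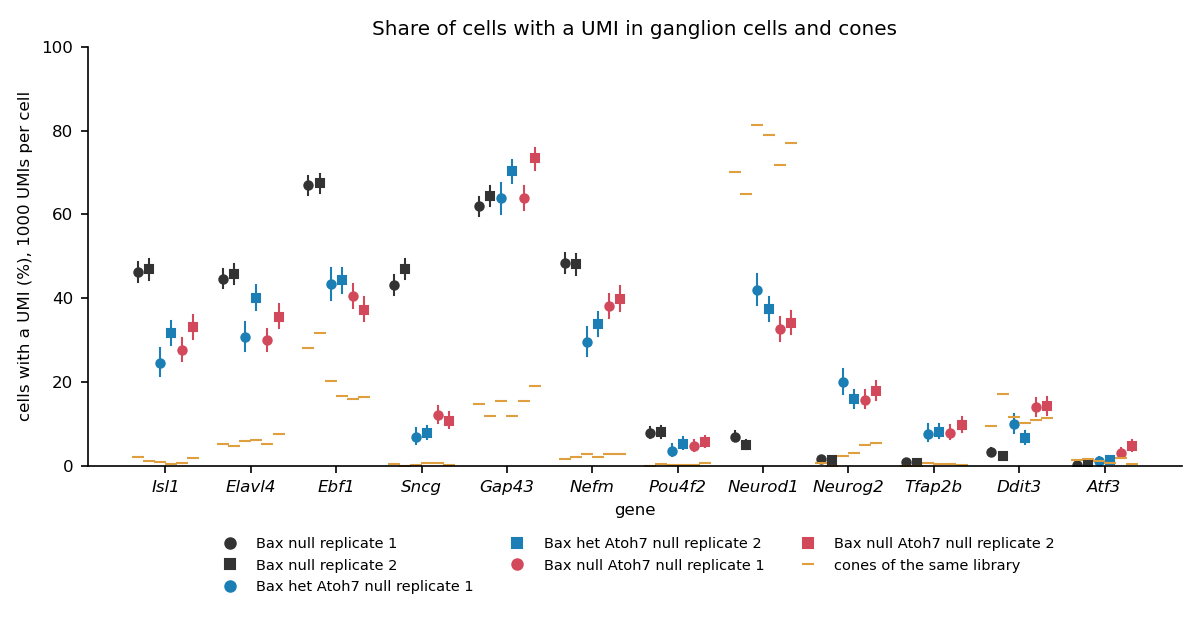
Share of ganglion cells with at least 1 UMI of a gene after thinning each cell to 1000 UMIs (y axis, %, with Wilson 95% intervals) for 12 genes on the x axis, per library, with the share in cones of the same library as a dash. Isl1, Ebf1 and Sncg were found in more ganglion cells of both Bax null libraries, Neurod1, Neurog2 and Tfap2b in fewer, and the Gap43 shares were above 60% in all 6.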

How the data were processed

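The deposited matrix holds raw UMI counts for 27998 genes and 93128 cells, and the authors' cell table gives library, cell type and cluster of each cell. Reads were processed by the authors with Cell Ranger 1.2.1 and mm10, per the submitters' processing notes, and filters on cells are not given in the sources used here. The table covers 2 further libraries (26078 cells) that were not used in any step. The matrix sum equalled the table's total in all 67050 cells used.

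Counts were summed per library over ganglion cells and progenitor cells. Both fits used all 6 libraries, filterByExpr, TMM and the edgeR 4.0.16 quasi-likelihood F test (R 4.3.3), the first with group as its term, the second on 12 sums with library and cell class by group. The standard error (SE) is that of the log2 change, and tests are two-sided. In simulated data the first fit recovered 76% of 100 genes changed by 1 and 95% of 100 changed by 2 on the log2 scale. It made 16 false calls of 10172 genes. The second fit recovered 65% and 91%, with 13 false calls of 13500. In the measured libraries the first fit called 5580 of 10586 genes in Bax null Atoh7 null against Bax null. Recovery and false calls in the measured libraries were not tested. As doublets, the top 8% of each library by Scrublet score (scanpy 1.11.5) were marked. Gene positions are GENCODE M21, and 56 symbols had over 1 identifier.

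The members and the 11 lists of 356 genes were chosen with earlier results of these data known. Named genes are list members, Atoh7, Bax and, per contrast with Bax null, up to 10 genes per direction called in both fits, by the smaller change, and up to 10 called genes under 5 CPM in progenitors of some library, by log2 change, with a mean of 20 CPM or more in the higher group and no overlap. The third contrast allowed 5 per direction. Xist, Y-linked, mitochondrial, ribosomal, histone and predicted genes were left out. Some genes of the lists are counted but not reported by name here. Replicates differed by more than counting error (chi-square per degree of freedom 2.16 to 4.62). Alternatives were RLE size factors, DESeq2 1.42.0, no filter, 4 libraries only, doublets or cells under 1000 UMIs left out, thinning, shared clusters, neurogenic cells or cones as the comparison, a replicate block and each library left out in turn. Library totals and the removal of shared barcodes were added after seeing the data.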

Additional observations from a re-analysis of the deposited data

Results flagged for a closer look

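The 2 Bax null Atoh7 null libraries shared 2596 cell barcodes, 17.62% of the cells of replicate 1 and 21.97% of those of replicate 2, which was outside the range of 126 to 223 of the other 14 pairs of libraries. Of the shared barcodes 91.91% had a UMI ratio between 0.3 and 0.5, and a cell correlated more with the cell of the same barcode (median 0.6327) than with a cell of another shared barcode (0.485).

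Some genes moved one way in ganglion cells and the other way in progenitor cells of the same libraries between Bax null and Bax null Atoh7 null, with no overlap in either cell type and a called difference between the 2 changes. The within-library value was -1.34 for Khdrbs2, -1.56 for Map2, -2.08 for Stmn3 and -2.14 for Gad2, which fell in ganglion cells and were higher in progenitors. It was 2.51 for Phlda3 and 1.31 for Dapl1, which rose in ganglion cells and were lower in progenitors.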

How the results depend on the processing

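With 1 library left out at a time, called genes ranged from 4276 to 5653 (5580 with all) for Bax null Atoh7 null against Bax null, from 3802 to 5755 (5297) for Bax het Atoh7 null against Bax null, and from 73 to 433 (248) between the Atoh7 null groups. The last count was 138 without Bax het Atoh7 null replicate 1, 73 without its replicate 2, 433 without Bax null Atoh7 null replicate 1 and 154 with only the 4 libraries compared. The within-library counts over all genes ranged from 1420 to 2147 (2144) and from 1248 to 2472 (2080), with 1420 without Bax null Atoh7 null replicate 1 and 1429 without Bax null replicate 2 for the first, and 1248, 1295 and 1385 without Bax het Atoh7 null replicates 1 and 2 and Bax null replicate 2 for the second. In the shared clusters the counts were 1210 and 969, with cones 1076 and 1012, after thinning 1209 and 1225, and Bax het Atoh7 null against Bax null gave 3499 in the first fit in the shared clusters. Thinning leaves fewer UMIs and the shared clusters fewer cells, and the cause of the other moves was not tested. Library totals raised the share of higher calls from 49.75% to 86.78%, from 49.97% to 84.84% and from 10.48% to 33.47% in the 3 contrasts, and moved it from 48.65% to 37.57% in the within-library contrast of Bax het Atoh7 null. The labels do not say that replicate numbers pair libraries. Deviations of same-numbered libraries correlated at 0.283 between the Atoh7 null groups and at 0.0734 and -0.0211 between Bax null and each of them, and a replicate block gave 5673, 5415 and 326 calls. The within-library fits were not run with DESeq2, without the filter or with a block.

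Of 6985 comparisons of 420 values of 106 genes with an alternative, 145 lost and 90 gained a call with the same sign. A further 21 changed sign with a call before or after. The other 6729 kept their side of the threshold, and a change of sign between uncalled values is counted among them. For 305 values every alternative run fell among the 6729. With library totals the values against Bax null in Bax null Atoh7 null became 0.51 for Pou4f1, 0.47 for Klf7, 0.49 for Sox11, 0.59 for Nefm, 0.39 for Stmn2, 0.067 for Tubb3, 0.56 for Dcx and 0.56 for Ncam1, and in Bax het Atoh7 null 0.28 for Klf7, 0.12 for Nefm, 0.38 for Dcx and 0.45 for Rtn1. In the shared clusters Ly6h became 0.10, and in Bax het Atoh7 null Ebf3 became 0.12, Nefm 0.11 and Sst 0.0059. Within libraries Crnde became 0.024 and Ly6h 0.38 in the shared clusters, and Klf7 0.14 and Stmn2 0.11 against cones in Bax het Atoh7 null. Bax against Bax null became -0.65 without Bax null Atoh7 null replicate 1 and 1.001 without replicate 2. Library totals do not correct for the shift of the median gene, and the cause of the other reversals was not tested.

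At 2000 UMIs per cell, which left out 37 and 41 ganglion cells of the Bax null libraries, 144 and 271 of Bax het Atoh7 null and 599 and 680 of Bax null Atoh7 null, the shares in Bax null, Bax het Atoh7 null and Bax null Atoh7 null were 69.08%, 41.45% and 49.18% for Isl1, 51.16%, 12.93% and 20.92% for Sncg, 15.19%, 8.537% and 9.459% for Pou4f2, 65.15%, 53.17% and 53.76% for Elavl4, and 75.02%, 86.49% and 87.26% for Gap43. Without doublets the Isl1 share of Bax null was 47.41%, and without shared barcodes the Sncg share of Bax null Atoh7 null 10.42%. Depth limits what the 4 Atoh7 null libraries show for genes near 1 CPM, where 3 UMIs equal 1.065 to 1.567 raw CPM.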
